A study of Drosophila melanogaster with 2 samples.

Results

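Of 7637 reproducible CG9948-GFP binding peaks in fly pupae, 670 had a summit that was no richer in A and T than the DNA on its flanks, a share of 8.77% (95% Wilson interval 8.16 to 9.43%). A summit is the base of a peak with the highest signal. These peaks were chosen by sequence alone: the A+T share within 50 bp of the summit had to be equal to or below the mean of a pair of windows of the same length centred 200 bp to its left and right. The other 6967 peaks had a summit richer in A+T than its flanks. The rule sets each summit against its own surroundings, so it does not make a summit poor in A+T: 284 of the 670 summits (42.4%) were above the genome mean of 57.7% A+T.

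The data are from 2 biological replicates, numbered 1 and 3, of whole Drosophila melanogaster pupae at 24 h, and they form 1 group. All animals carried a transgene, stably expressed, that fuses GFP to the C-terminus of CG9948. Sex was not recorded, both samples came from the same fly line, and which cells express the fusion is not given in the labels. Chromatin was sheared by sonication and precipitated with an antibody against GFP; the control library was not analysed here. With 1 group there is no comparison between conditions, and since peaks are not replicates, peaks without an A+T-rich summit were set beside the other peaks by counts and medians, with no p-value. The Wilson intervals cover counting error only, and the peaks they count are not independent.

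CG9948 is an uncharacterized protein. In chromatin immunoprecipitation, a peak marks DNA that was recovered with the tagged protein, whether the protein touches that DNA itself or is held there by others. Long runs of A and T disfavour nucleosomes, and several families of DNA-binding proteins, among them homeodomain and AT-hook proteins, read A+T-rich DNA. Fly promoters often hold such DNA just upstream of the transcription start site (TSS), with a more mixed composition at the start itself.

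Depth is unknown, because the deposited lists give no read counts. The lists of replicate 1, of replicate 3 and of the pooled reads each held 30000 peaks, and the list of reproducible peaks (IDR, irreproducible discovery rate) held 7637. Signal is the authors' value per peak on a scale that is not stated, so levels were compared only within a list. Where the values of several lists stand side by side for a peak, they are given as deposited and no difference between lists is read from them. The median signal was 25.02 in the replicate 1 list and 51.9 in the replicate 3 list. The replicate 3 list had 196 peaks on chromosome 4, where the replicate 1 list had 7.

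The windows that reach 50 bp to either side of 12 summits show what the rule separates. They were read from the release 6 reference of RefSeq (dm6, plus strand), and capitals mark every run of 6 or more A or T. The first 6 are the strongest peaks without an A+T-rich summit on the arms shown; the CG13501 peak, which ranks just above that of Cat, lies on another arm and its sequence is not printed.
CG9663 intron, chr2L:3302156-3302256: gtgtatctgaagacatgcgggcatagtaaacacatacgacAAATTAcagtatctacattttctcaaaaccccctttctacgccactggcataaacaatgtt
lncRNA:CR31044 promoter, chr3R:29214386-29214486: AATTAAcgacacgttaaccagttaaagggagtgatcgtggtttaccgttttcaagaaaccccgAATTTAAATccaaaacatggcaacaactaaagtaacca
DNAlig3 upstream, chr3R:12403083-12403183: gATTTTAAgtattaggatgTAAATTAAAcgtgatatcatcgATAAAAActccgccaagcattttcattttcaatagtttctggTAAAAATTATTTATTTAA
CG32772 promoter, chrX:4909094-4909194: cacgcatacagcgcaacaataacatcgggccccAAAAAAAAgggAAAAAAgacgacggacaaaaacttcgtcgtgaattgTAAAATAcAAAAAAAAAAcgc
Pen intron, chr2L:10057396-10057496: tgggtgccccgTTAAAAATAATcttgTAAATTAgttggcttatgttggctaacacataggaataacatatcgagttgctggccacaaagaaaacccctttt
Cat promoter, chr3L:18822880-18822980: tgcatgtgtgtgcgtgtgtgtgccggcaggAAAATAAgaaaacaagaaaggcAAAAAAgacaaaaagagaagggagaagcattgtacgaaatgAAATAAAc
The next 3 are the summits that lay farthest below their flanks in A+T, and none of them holds a run.
CG1632 coding exon, chrX:8271996-8272096: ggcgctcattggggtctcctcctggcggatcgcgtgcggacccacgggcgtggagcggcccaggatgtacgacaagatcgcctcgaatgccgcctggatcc
GstT4 promoter, chrX:13404616-13404716: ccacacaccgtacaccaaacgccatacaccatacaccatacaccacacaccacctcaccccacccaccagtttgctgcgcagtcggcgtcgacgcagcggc
Tollo upstream, chr3L:15234660-15234760: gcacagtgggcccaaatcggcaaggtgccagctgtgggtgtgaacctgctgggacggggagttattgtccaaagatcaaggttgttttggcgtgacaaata
The last 3 are the strongest of the other reproducible peaks, for contrast.
CG14100 promoter, chr3L:19590563-19590663: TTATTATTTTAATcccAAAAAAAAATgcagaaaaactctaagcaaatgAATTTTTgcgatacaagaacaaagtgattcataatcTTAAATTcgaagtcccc
lncRNA:Vinr promoter, chrX:12751336-12751436: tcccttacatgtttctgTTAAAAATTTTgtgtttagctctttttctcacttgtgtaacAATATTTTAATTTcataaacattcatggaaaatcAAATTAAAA
Ugalt promoter, chrX:2703837-2703937: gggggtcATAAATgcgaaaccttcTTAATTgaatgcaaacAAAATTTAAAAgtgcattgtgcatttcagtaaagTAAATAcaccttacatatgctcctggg

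The median window held 2 such runs in peaks without an A+T-rich summit and 4 in the other peaks, covering 13 and 32 bases. No run at all was found in 139 of 670 windows (20.7%), against 112 of 6967 (1.61%). The CG9663 window has 1 run of 6 bases, whereas the DNAlig3 window has 4 runs that cover 41 bases and still counts, because its flanks were richer in A+T than its summit.

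The composition that chose these peaks is given here as a description. Their summit windows had a median A+T share of 56.4% (quartiles 50.7 and 61.4%), against 71.3% (67.3 and 75.2%) in the other peaks. Their flanks had a median of 62.6%, against 54.0%. In 303 of the 670 peaks (45.2%) the summit was below both flanks, and in the other 367 it lay between them. The summit was at least 10 percentage points below the flanks in 156 peaks and at least 20 points below in 20. At the threshold, 44 peaks had a difference of exactly 0 and 128 lay within 1 point below it, while 88 of the other peaks lay within 1 point above it, the nearest at 0.50 points.

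The search for the most A+T-rich DNA nearby covered the flank windows that the rule used, so its values largely follow from the rule. The same search was not run at genome positions. The most A+T-rich window of the same length, centred within 300 bp of the summit, had a median of 75.2% A+T around these peaks, against 77.2% around the other peaks. It lay a median of 200 bp from the summit, against 40 bp, and more than 100 bp away in 580 of 670 peaks (86.6%), against 1157 of 6967 (16.6%). In windows of 21 bp the mean A+T share of these peaks was 54.6% at the summit and 62.9 and 62.6% at 200 bp to its left and right, as the plot of A+T by distance shows. In the other peaks it was 71.8% at the summit and 54.1 and 54.2% at the same distances.

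**Figure D1:**
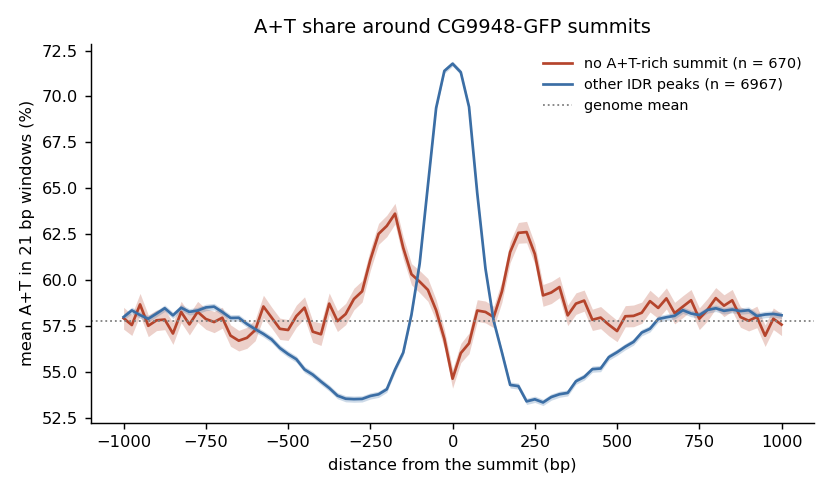
Mean A+T share in 21 bp windows (vertical axis, percent) by distance from the IDR summit (horizontal axis, bp) for 670 peaks without an A+T-rich summit and 6967 other IDR peaks; bands are the standard error over peaks and the dotted line is the genome mean. The peaks without an A+T-rich summit dip to 54.6% between a pair of maxima near 200 bp, where the other peaks reach 71.8% at the summit; the rule itself used the values within 250 bp.

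Peaks without an A+T-rich summit were mostly weak. Their median signal in the IDR list was 230 (quartiles 180 and 348, lowest 149.95, highest 2888), against 322 (212 and 559) in the other peaks, a ratio of 0.71. In quintiles of the IDR list by signal, strongest to weakest, they made up 3.08, 6.42, 7.60, 11.8 and 14.99% of the peaks. The strongest ranked 33 of 7637. In the longer pooled list the same rule was met by 6.26% of the 5000 strongest peaks (Wilson interval 5.62 to 6.97%), then by 18.4, 37.5, 47.3, 52.7 and 55.0% in successive steps of 5000 ranks. Of 1322855 positions spaced evenly along the 6 chromosome arms, 52.4% met the rule. The weakest pooled peaks thus met it about as often as positions taken without regard to binding, and the strongest far less often. Of the 7637 IDR peaks, 7565 were identical to a pooled peak, so the trends in these lists are not independent.

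**Figure D2:**
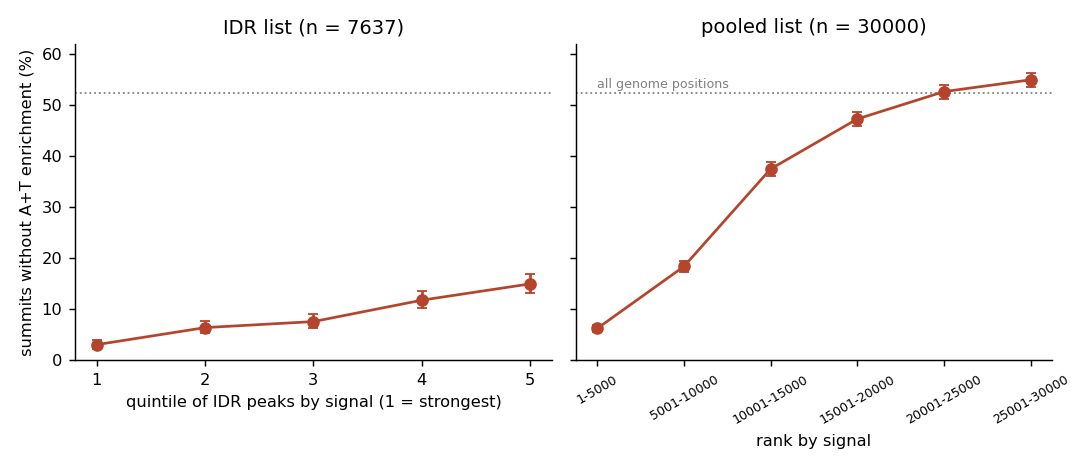
Share of summits that met the rule (vertical axes, percent, with 95% Wilson intervals) in quintiles of the IDR list by signal (left; 1 is the strongest quintile) and in steps of 5000 ranks of the pooled list (right); the dotted lines mark the 52.4% of evenly spaced genome positions that met it. The share is 3.08% in the strongest quintile and 14.99% in the weakest quintile of the IDR list, and 55.0% in the last 5000 pooled peaks.

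Their median width was 390 bp, against 319 bp in the other peaks, but among the strongest peaks by signal, those at or above the IDR median, the ratio of median widths was 0.96 in place of 1.22. A width of exactly 390 bp with the summit at the centre, which is also the commonest width in the pooled list, was found in 274 of the 670 (40.9%), against 1903 of 6967 (27.3%).

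The replicates differed over these peaks. Both replicate lists held an overlapping peak, by at least 50% of the shorter one, for 524 of 670 (78.2%, interval 74.9 to 81.2%), against 6434 of 6967 other peaks (92.3%, interval 91.7 to 93.0%) and 91.1% of all IDR peaks. The difference lay with replicate 1, which held 81.0% of them, against 95.3% of the other peaks, whereas replicate 3 held 97.0% of either set. Replicate 3 alone held 126 (18.8%), against 322 (4.62%). With the other peaks weighted to the same quintiles of signal, 89.6% were in both lists. In the strongest quintile 46 of 47 were in both lists, against 1470 of 1481. Without the peaks of 390 bp with a central summit, 84.8% of 396 were in both lists, against 94.7% of 5064.

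Where both lists held a peak, the replicate signals were also less correlated over these peaks. The median log2 ratio of replicate 3 to replicate 1 signal was 1.29 in 524 peaks, against 1.07 in 6434; since the scales of both lists are not stated, the ratio bears only on the difference between these sets of peaks and not on which replicate was higher. Spearman's rho between the replicate signals was 0.55, against 0.82, as a description across peaks that share libraries. Unlike the share in both lists, it was not weighted to the same quintiles of signal. The sets differ in their range of signal, and the part of that range in the difference was not tested. The summits of replicates 1 and 3 lay a median of 33 bp apart, against 24 bp.

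The rule was also applied at the summit of each replicate. The IDR summit lay a median of 7 bp from that of replicate 3 and 31 bp from that of replicate 1, so these windows mostly hold bases that the rule had already used, and the 2 replicate lists were among the inputs to the IDR list. The counts therefore describe how far the choice depended on the exact summit, and largely restate it. At the replicate 1 summit, 339 of 543 peaks (62.4%, interval 58.3 to 66.4%) again had no A+T-rich summit, against 238 of 6642 other peaks (3.58%). At the replicate 3 summit the count was 503 of 650 (77.4%, interval 74.0 to 80.4%), against 181 of 6756 (2.68%). Both replicate summits met the rule in 267 of 524 peaks (50.95%), and neither did in 72 (13.7%). Among the other peaks both met it in 34 of 6434 (0.53%).

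**Figure D3:**
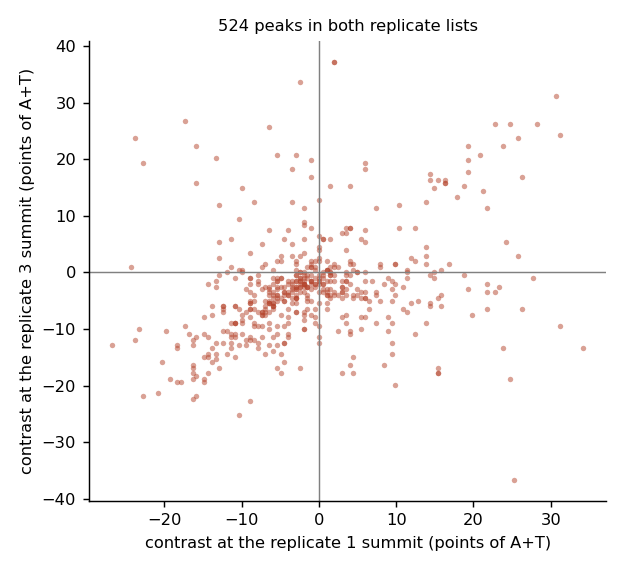
Summit minus flank A+T (percentage points) at the replicate 1 summit (horizontal axis) and at the replicate 3 summit (vertical axis) of the 524 IDR peaks without an A+T-rich summit found in both replicate lists, 1 point per peak. The lower left quadrant, including its borders at 0, holds the 267 peaks that met the rule at both replicate summits, and 72 lie in the upper right.

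Among the 25 strongest peaks without an A+T-rich summit, 13 lay in promoters, 8 in introns, 2 in 3′ UTRs and 2 between genes, and 24 were in both replicate lists. The rule held at all 3 summits in 15 of them, and 3 were A+T-rich at both replicate summits.

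The strongest lay in an intron of CG9663, 924 bp downstream of a TSS (chr2L:3301874-3302673), with a signal of 2888 in the IDR list, 898 in replicate 1 and 1935 in replicate 3. Its summit window had 60.4% A+T and its flanks 62.9%. Another IDR summit, with 76.2% A+T and a signal of 2531, lay about 200 bp away, and both IDR peaks overlapped the same peak of each replicate list. The second was 126 bp upstream of the noncoding gene lncRNA:CR31044, with a signal of 2619 in the IDR list, 749 in replicate 1 and 1884 in replicate 3. Its contrast, summit minus flank A+T, was -1.49 points at the IDR summit, -5.45 at the replicate 1 summit and 1.98 at the replicate 3 summit, so replicate 3 alone put it among the A+T-rich summits.

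The third lay between genes, 1294 bp upstream of DNAlig3, which encodes a DNA ligase, with a signal of 1740 in the IDR list, 513 in replicate 1 and 1216 in replicate 3. It was the most A+T-rich of the 6 summits printed first, at 75.2%, with flanks at 83.2%. The intronic peak of Pen, which encodes an importin alpha, lay 546 bp downstream of the TSS and had signals of 1535 in the IDR list, 636 in replicate 1 and 898 in replicate 3. The peak of Cat, the catalase gene, lay 326 bp downstream of the TSS, with signals of 1482, 226 and 1259 in the same order, and its contrast was -0.99 points at the IDR summit and 1.49 at the replicate 3 summit. The CG9663, lncRNA:CR31044, CG32772, Pen and Cat summits were thus borderline cases, at most 2.48 points below their flanks.

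Other strong peaks were clearer cases. The sixth strongest, 277 bp upstream of the TSS of CG13501, had 52.5% A+T at the summit, against 63.9% on its flanks. Its contrast was -11.4 points at the IDR and replicate 1 summits and -8.91 at the replicate 3 summit, and its signals were 1484 in the IDR list, 559 in replicate 1 and 935 in replicate 3. The summit 337 bp downstream of the TSS of CLIP-190, a microtubule plus-end protein, had 51.5% A+T, against 73.3% on its flanks. Its contrast was -21.8 points at the IDR summit, -20.8 at the replicate 1 summit and -21.3 at the replicate 3 summit, and its signals were 1219 in the IDR list, 239 in replicate 1 and 981 in replicate 3. The 3′ UTR peak in CG7872 had a contrast of -10.4 points and a signal of 910. An intronic peak of shn, a zinc finger factor of the Dpp pathway, had 46.5% A+T, against 60.9% on its flanks, with a signal of 955 in the IDR list and 625 in replicate 3, and no match in replicate 1. The peak 73 bp upstream of Atat, an alpha-tubulin acetyltransferase gene, had signals of 1100 in the IDR list, 19.4 in replicate 1 and 820 in replicate 3.

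Of the others among the 25, 4 are described here by the genes they lay near, chosen after their values were seen. The peak 145 bp upstream of numb, which encodes an inhibitor of Notch, had a signal of 1247 but was A+T-rich at both replicate summits, with contrasts of 1.49 and 5.94 points in replicates 1 and 3. An intronic peak of aop, which encodes an ETS-domain repressor, met the rule at all 3 summits, with contrasts of -3.47, -2.97 and -4.46 points. An intronic peak of lncRNA:let7C, the host of the let-7 microRNA cluster, lay 567 bp from its TSS with a signal of 1329 and met the rule at all 3 summits. The peak 351 bp upstream of Gug, which encodes an Atrophin-type corepressor, had a signal of 896 and contrasts of -2.48, -2.97 and -2.48 points.

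The 5 summits farthest below their flanks were mostly of low rank. The lowest, in a coding exon of CG1632 and 637 bp upstream of Corp, had 31.7% A+T, against 71.8% on its flanks, with signals of 152 in the IDR list, 112.0 in replicate 1 and 112.3 in replicate 3. At the replicate 3 summit the contrast was -36.6 points, but at the replicate 1 summit it was 25.2 points, and another IDR summit lay 218 bp away. The peak 83 bp upstream of GstT4, a glutathione S-transferase gene, had 38.6% A+T, against 64.4%, a signal of 254, no match in replicate 1 and another IDR summit 205 bp away. The peak 909 bp upstream of Tollo, a Toll family receptor gene, had 46.5% A+T, against 71.8%, and contrasts of -10.4 and -25.2 points in replicates 1 and 3. The other two were a coding exon of otp, a homeobox gene, at -24.8 points, and a summit 305 bp downstream of the TSS of Unr, an RNA-binding protein gene, at -23.3 points, level with an intronic summit of Eip75B, an ecdysone-induced nuclear receptor gene. The 5 thus include 2 with a neighbouring summit that falls into a flank window.

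A minority of these peaks had a close neighbour. Another IDR summit lay within 500 bp of 121 of the 670 (18.1%, interval 15.3 to 21.2%), against 321 of 6967 (4.61%) and 5.79% of all IDR peaks. The distance had a median of 204 bp, with 199 bp as the shortest and 421 bp as the longest, so most of these neighbours lay inside a flank window that the rule used. Within 250 bp the counts were 118 of 670 (17.6%), against 291 of 6967 (4.18%). Nearly all of the difference thus lay within reach of the flank windows. An A+T-rich neighbour there raises the flank mean, so this share is not independent of the rule. The neighbour had a median of 72.3% A+T, it was itself without an A+T-rich summit in 3 of 121 pairs, and it had the higher signal in 86 (71.1%). Both peaks of a pair overlapped the same replicate 1 peak in 68 of the 121 and the same replicate 3 peak in 57. That shared replicate summit was nearer to the neighbour in 49 of 68 and in 41 of 57. Of the 267 peaks that met the rule at all 3 summits, 28 (10.5%) had such a neighbour.

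Summits without A+T enrichment were found in promoters more often than the other summits. Within 500 bp of a TSS lay 292 of the 670 (43.6%, interval 39.9 to 47.4%), against 1988 of 6967 (28.5%, interval 27.5 to 29.6%) and 29.9% of all IDR peaks. Introns held 257 (38.4%), against 47.5%, and DNA between genes 94 (14.0%), against 22.0%. Weighted to the same quintiles of signal, 26.3% of the other peaks were in promoters. In the strongest quintile the promoter shares were 42.6% of 47, against 38.01% of 1481, with intervals that overlap. The promoter share was 45.0% of 549, against 28.2% of 6646, without the peaks that had a neighbour within 500 bp, and 38.6% among the 267 that met the rule at all 3 summits.

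Exon classes were small. All 5 IDR summits in coding exons belonged to the set, and none of the 6967 others lay there, which allows a share of up to 0.055% by the Wilson interval. The 5 were in otp, in Pvf3, a growth factor gene of the PDGF and VEGF family, in sgg, the GSK-3 kinase gene, in Snx27, a sorting nexin gene, and in CG1632. Their signals were 279, 190.2, 181, 169 and 152, all below the median of the set except that of otp. The 3′ UTR held 10 (1.49%), against 31 (0.44%), and the 5′ UTR 8 (1.19%), against 23 (0.33%). The strongest in a 5′ UTR were those of Fbl6, an F-box protein gene, with a signal of 712, and of cbt, a zinc finger factor gene, with a signal of 684. In cbt the contrast was -7.43 points at the IDR summit, 7.43 at the replicate 1 summit and -8.91 at the replicate 3 summit.

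**Figure D4:**
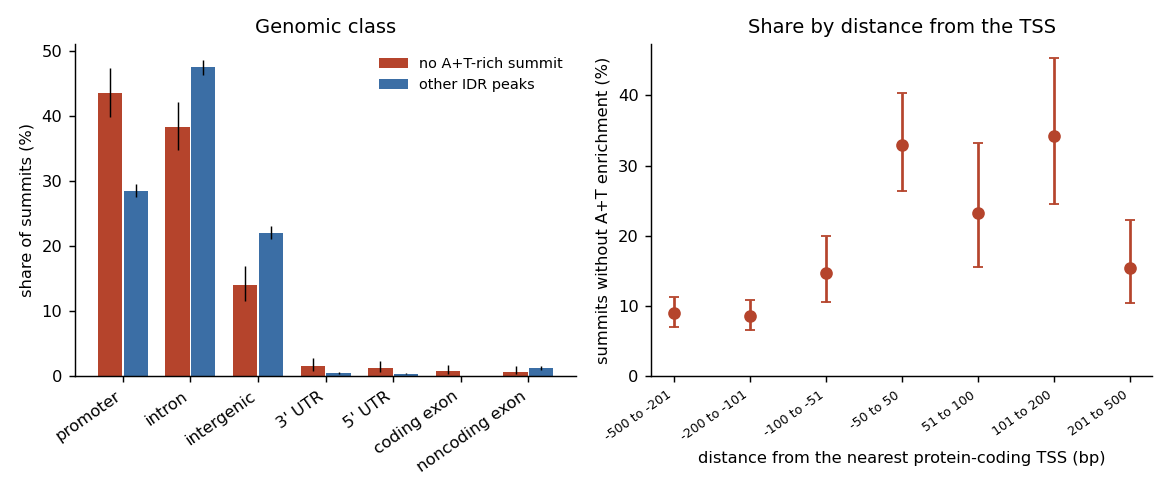
Left, share of summits in each genomic class (vertical axis, percent, with 95% Wilson intervals) for 670 peaks without an A+T-rich summit and 6967 other IDR peaks. Right, share of IDR summits without A+T enrichment (vertical axis, percent, with 95% Wilson intervals) by signed distance from the nearest protein-coding TSS (horizontal axis, bp, negative upstream). Promoters hold 43.6 and 28.5% of the 2 sets, and the share without A+T enrichment is 32.9% within 50 bp of a TSS but 8.50% at over 100 and up to 200 bp upstream.

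The position within promoters differed as well. Of the 275 within 500 bp of a protein-coding TSS, 186 lay upstream (67.6%, interval 61.9 to 72.9%) and 88 downstream, against 1501 of 1785 (84.1%, interval 82.3 to 85.7%) upstream among the other peaks. Their median position was 67 bp upstream, against 154 bp upstream. Summits within 50 bp of a TSS lacked A+T enrichment in 56 of 170 cases (32.9%, interval 26.3 to 40.3%), and those over 100 and up to 200 bp upstream in 56 of 659 (8.50%, interval 6.60 to 10.9%). At over 100 and up to 200 bp downstream the count was 26 of 76 (34.2%), and at over 200 and up to 500 bp upstream 63 of 708 (8.90%). Divergent TSSs at most 1 kb apart enclosed 70 of the 275 (25.5%), against 633 of 1785 (35.5%).

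The sequence of promoters moves with these positions. When the rule was applied at every one of 19253 protein-coding TSSs, with or without a peak, 58.2% met it at the TSS itself, 44.6% at 100 bp upstream, 36.1% at 200 bp upstream and 52.9% at 100 bp downstream. The IDR summits met it less often than that at each of these places. In the promoter peaks without an A+T-rich summit, the flank on the upstream side had a median of 66.3% A+T and the flank on the downstream side 58.4%, against 58.4 and 53.5% in the other promoter peaks. The part of this base composition in the promoter count was not tested.

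Cytosolic ribosomal protein genes, which encode the protein part of the ribosome of the cytoplasm, had the highest share among the gene lists with 5 or more genes that had an IDR promoter summit; no enrichment was tested. Of 93 such genes, 43 had an IDR summit within 500 bp of a TSS, and in 21 of them (48.8%, interval 34.6 to 63.2%) at least 1 such summit had no A+T enrichment. Over all protein-coding genes the count was 345 of 2515 (13.7%, interval 12.4 to 15.1%). The 21 summits lay 123 bp upstream to 38 bp downstream of the TSS, with a median of 31 bp upstream. Limits on signal and distance were then set after the values were seen. Where the strongest promoter peak of a gene was below the IDR median, the counts were 19 of 39 (48.7%). For other protein-coding genes they were 183 of 1049 (17.4%). With a promoter summit also within 130 bp of a TSS, they were 19 of 33 (57.6%), against 77 of 342 (22.5%). All 21 summits lay within 130 bp, so this limit could remove only ribosomal protein genes without such a summit. At the TSS itself, whether bound or not, the rule was met by 79.0% of 157 ribosomal protein TSSs.

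Their peaks were weak and uneven between replicates. The signal had a median of 182, with 152 as the lowest and 547 as the highest, against a median of 208 in the 22 ribosomal protein genes whose promoter peaks were all A+T-rich. Of the 21, 13 were matched in replicate 1, 20 in replicate 3 and 12 in both, and 6 met the rule at all 3 summits. In the other 22 genes, the strongest promoter peak was matched in both replicates in 15, so uneven matching was not particular to the 21. RpL32 had the strongest, 123 bp upstream of the TSS, with signals of 547 in the IDR list, 191 in replicate 1 and 49.5 in replicate 3. RpS27 followed at 435, with 53.0 in replicate 1 and 275 in replicate 3. Another IDR summit, with 75.2% A+T, lay 218 bp from it, and both IDR peaks overlapped the same peak of each replicate list. RpL14 had 309 in the IDR list and 84.8 in replicate 1, with no match in replicate 3. The RpS5a summit, chosen after its values were seen, lay 43 bp upstream of the TSS and met the rule at all 3 summits, with 40.6% A+T, against 59.4% on its flanks, and signals of 182, 76.9 and 114 in the IDR, replicate 1 and replicate 3 lists. RpS14b has a near-identical tandem copy, RpS14a, so its reads may be split between them.

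Other lists of the translation machinery gave smaller numbers. Translation factor genes had such a summit in 5 of 14 (35.7%, interval 16.3 to 61.2%): eIF5B, with a signal of 444, eEF1gamma with 356, eIF4H1 with 262, eEF2 with 228 and eIF4G2 with 212. Those of eIF5B, eIF4H1 and eIF4G2 met the rule at all 3 summits. Mitochondrial ribosomal protein genes had it in 3 of 21 (14.3%), near the share over all protein-coding genes, and proteasome subunit genes in 1 of 6. Transfer RNA genes had it in 8 of 21 (38.1%, interval 20.8 to 59.1%), but these rest on 4 summits, since clustered copies share a summit, and reads of repeated tRNA genes may be split between copies. The strongest of the 4, near tRNA:Val-CAC-2-5, was matched in neither replicate list. Long noncoding RNA genes had it in 18 of 217 (8.29%, interval 5.31 to 12.7%). Over all noncoding genes the count was 37 of 322 (11.5%, interval 8.45 to 15.4%). The summit shared by tRNA:Ala-AGC-2-3 and its neighbours had 74.3% A+T, against 78.2% on the flanks.

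**Figure D5:**
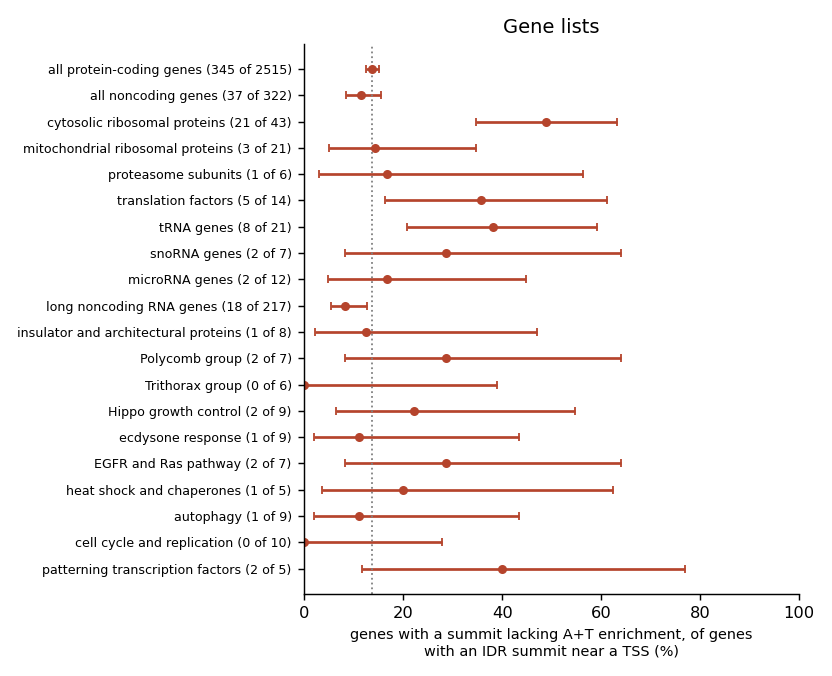
Share of genes with at least 1 summit without A+T enrichment (horizontal axis, percent, with 95% Wilson intervals) among genes of each list (vertical axis, with the counts) that had an IDR summit within 500 bp of a TSS, for lists with 5 or more such genes. Cytosolic ribosomal protein genes reach 48.8%, and the dotted line marks the 13.7% of all protein-coding genes.

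Lists of regulatory genes had few genes with an IDR promoter peak, so their shares are imprecise: each interval given here holds the 13.7% of all protein-coding genes. A promoter summit without A+T enrichment was found in 2 of 5 patterning transcription factor genes (40.0%, interval 11.8 to 76.9%), 2 of 7 Polycomb group genes (28.6%, interval 8.22 to 64.1%), 2 of 7 EGFR and Ras pathway genes (28.6%, with the same interval) and 2 of 9 Hippo growth control genes (22.2%, interval 6.32 to 54.7%). Ecdysone response genes had it in 1 of 9 (11.1%, interval 1.99 to 43.5%) and heat shock and chaperone genes in 1 of 5 (interval 3.62 to 62.4%). Cell cycle and replication genes had it in 0 of 10, which allows a share of up to 27.8% by the Wilson interval, and Trithorax group genes in 0 of 6, which allows up to 39.0%.

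Merlin (Mer), an upstream regulator of the Hippo kinase cascade, had one just downstream of its TSS with a signal of 554 in the IDR list, 192 in replicate 1 and 362 in replicate 3, and hpo, the kinase itself, had one with a signal of 160 that was matched in replicate 3 alone. Psc, a Polycomb group gene, had one at 152 bp downstream with a signal of 233, and ph-d one at 241 bp upstream with a signal of 205. The replicate peaks matched to the ph-d summit, with signals of 79.9 and 784, were also matched to a stronger IDR peak nearby, at 1462. Of the EGFR and Ras genes, aop had a promoter summit 454 bp upstream, apart from its intronic peak, with a signal of 455, and pnt, which encodes an ETS-domain activator, one 288 bp upstream with a signal of 239. Of the patterning factors, so, an eye homeobox gene, had one with a signal of 190.2, and bi, a T-box gene, one with a signal of 157. Eip74EF, an ecdysone-induced ETS factor gene, had one 494 bp upstream with signals of 692, 314 and 374 in the IDR, replicate 1 and replicate 3 lists. The Hsp90 gene Hsp83 had one at 83 bp downstream with a signal of 365 that was matched in replicate 3 alone.

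Short motifs were searched on both strands within 50 bp of the summit. Of 25 motifs, 9 were more frequent in peaks without an A+T-rich summit than in the other peaks, with intervals that did not overlap, 6 were less frequent, and for 10 the intervals overlapped. CACTG was found in 186 of 670 windows (27.8%, interval 24.5 to 31.3%), against 12.3% of the other peaks and 16.1% of genome windows of the same length. GAGAG, the core bound by GAGA factor, was found in 18.4%, against 6.80%, and in 11.4% of genome windows. GCCAT, the core of the Pho site, was found in 21.2%, against 9.90%, and in 19.7% of genome windows. TATAAA, the TATA box, was found in 8.96%, against 29.0%, and in 11.7% of genome windows. These shares are not independent of the rule, since a summit richer in A+T has fewer places for a motif with G and C.

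The other peaks were then weighted to the same A+T share, in steps of 2 percentage points. Only 638 of the 670 peaks had other peaks in the same step, and the shares that follow are over these 638. The weighted share lay inside the interval of these peaks for 17 of the 25 motifs. That interval leaves out the counting error of the weighted share, for which no interval was computed. The weighted share leans on few other peaks at low A+T. Above the genome mean were 6783 of the 6967 other summits, against 284 of the 670. Whether the differences named below exceed this error was not tested. CACTG was found in 28.5%, against a weighted 28.1%, GAGAG in 17.9%, against 18.0%, GCCAT in 21.2%, against 19.5%, and TATAAA in 9.40%, against 8.79%. Of the other motifs, CAGCTG, an E-box, was found in 4.23% (interval 2.92 to 6.09%), against a weighted share of 1.84% and 4.24% of genome windows. CAGGTA was found in 2.19% (interval 1.31 to 3.65%), against a weighted 4.70%, and GGGCGG in 2.04% (interval 1.19 to 3.45%), against a weighted 5.13%. AAAAAA was found in 25.4% (interval 22.2 to 28.9%), against a weighted 18.9%. A match is a description of letters and not a site of binding.

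Repeat-masked sequence was less common at these summits. Over 50% of the window was soft-masked in the reference in 33 of 670 (4.93%), against 1211 of 6967 (17.4%), and no base was masked in 312 (46.6%), against 19.6%. The part of base composition in this difference was not tested.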

How the data were processed

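Anti-GFP ChIP-seq peaks of 2 biological replicates (1 and 3) of 1 group were analysed. Peak lists in narrowPeak form on dm6 were deposited for each replicate, for the pooled reads and as optimal IDR peaks, per the deposited readme texts. Aligner, caller and IDR settings were not given in the sources used here. The signal per peak was used as the authors deposited it, on a scale not stated. The summit was taken as the peak start plus the offset in bases that the authors deposited. Depth is unknown. A+T shares came from the RefSeq release 6 genome, and genes from Ensembl release 115, with transposable elements left out. A promoter was within 500 bp of any TSS, and other summits took the first class that held of 5′ UTR, coding exon, 3′ UTR, exon of a noncoding gene, intron or intergenic. Peaks matched where they overlapped by 50% of the shorter. Shares have 95% Wilson intervals, and no p-value was computed, since peaks are not replicates. The peaks and gene lists were chosen with earlier results of these data known. Named peaks are among the 25 strongest, the 3 strongest of each class, up to 3 of each gene list and the 5 with the lowest contrast. Some counts of 5 or fewer, but not all, were also named in full. Any other peak named was chosen after its values were seen. Scripts used Python 3.11.15, numpy 2.4.6 and pandas 2.3.3, and the rule and overlaps were tested on simulated data. Alternatives were other windows, flank distances, thresholds, overlaps and single replicates.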

Additional observations from a re-analysis of the deposited data

How the results depend on the processing

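Of 85 alternative values for 11 results, 47 were counted as unmoved, 37 as moved and 1 as reversed. Shares were judged by the Wilson interval of the reported value. The signal and width ratios have no such interval and were judged by the spread of their single-replicate values. That spread was narrow for signal and wide for width. Without neighbours, a signal ratio of 0.710 counted as moved from 0.714, but a width ratio of 1.19 as unmoved from 1.22. The counts thus partly reflect this yardstick. No paired analysis was possible because there is 1 group. The share of peaks without an A+T-rich summit was 11.7% with 51 bp windows, 5.34% in the strongest peaks, at or above the median signal, 4.28% at 5 points or more below the flanks, 36.2% in the pooled list, and 8.12 to 11.4% in as many of the strongest peaks of a single replicate. The share in both replicate lists was 81.2% with an overlap of 1 bp, 70.0% with an overlap of 80%, 90.2% in the strongest peaks, 72.5% at 5 points and 84.8% without the peaks 390 bp wide. The share that met the rule again was 62.4 to 77.4% with 1 replicate summit in place of both. The signal ratio was 0.82 in the strongest peaks, 0.67 at 5 points, 0.74 with 51 bp windows, 0.71 with windows reaching 100 bp either way, 0.73 with flanks at 300 bp, 0.71 without neighbours and 0.666 to 0.669 in single replicates. The width ratio reversed to 0.96 in the strongest peaks and was 1.00 to 1.21 in single replicates. The promoter share was 33.9% for 250 bp, against 19.5% of the other peaks, and 57.2% for 1000 bp, against 38.4%. It was 38.6% for peaks at all 3 summits and 36.3 to 45.7% in single replicates. The upstream share was 60.5% for 1000 bp, against 76.2% of the other peaks. It was 61.6% for peaks at all 3 summits and 61.6 to 71.6% in single replicates. The share with a neighbour was 34.0% for 1000 bp, against 27.2% of the other peaks. It was 14.2% in the strongest peaks, 21.7% at 5 points and 15.5 to 21.2% in single replicates. The CACTG share was 13.7% within 25 bp, against 5.01% of the other peaks, and 46.1% within 100 bp, against 41.3%. It was 26.6 to 28.7% in single replicates. The masked share was 53.4% for any masked base, against 80.4% of the other peaks. It was 3.36% at 5 points and 4.03 to 5.84% in single replicates. The ribosomal protein share was 41.7 to 57.8% in single replicates, 39.5% with flanks at 300 bp and 37.2% at 5 points. The share over all protein-coding genes was not recomputed under these settings. Apart from the width ratio, each measure set beside the other peaks kept its direction under these alternatives. The difference was smaller for CACTG within 100 bp and for neighbours within 1000 bp. The settings for neighbours, the 390 bp width, peaks at all 3 summits and the ribosomal protein genes were chosen after seeing the data. The cause of each shift was not tested. Unknown depth and a signal scale that is not stated limit comparisons to within lists.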

Other observations

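Coding exons, which hold 5 of the 670 IDR peaks without an A+T-rich summit, were more common among weak pooled peaks. Of the pooled summits that met the rule, 1, 8, 39, 114, 197 and 306 lay in coding exons in successive steps of 5000 ranks. In the last step that was 11.1% of the summits that met the rule, against 4.98% of those that did not. Their promoter share was 45.0% in the first 5000 ranks and 19.1% in the last, against 30.5 and 20.04% of the summits that did not meet it. Pooled peaks that overlapped no IDR peak met the rule in 44.6% of 21303 cases, and those that overlapped one in 15.6% of 8697.

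By chromosome arm the share of IDR peaks without an A+T-rich summit was 10.3% on X (interval 8.80 to 11.9%), 9.55% on 2R, 8.13% on 2L, 8.10% on 3R and 7.94% on 3L, and the intervals of these 5 arms all overlap. On chromosome 4 it was 5 of 13 peaks, where replicate 1 had 7 peaks in all.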
